A study of Mus musculus with 4 samples.

Results

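The genes for the subunits, regulators and assembly factors of the proteasome were examined for peaks of ALaP-seq, a method that labels chromatin near PML bodies, in mouse embryonic stem cells. Members were the protein-coding genes on the 19 autosomes, in the GENCODE M21 annotation of mm10, whose symbol begins with Psm, a letter from a to g and a digit. This rule gave 49 genes of 20807 autosomal protein-coding genes. They included Psmc3ip, whose product acts in meiotic recombination and is not a proteasome subunit. Psmd10 lies on chromosome X and was outside the rule.

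The 4 samples were E14 embryonic stem cells with an APEX-PML knock-in, so every sample carried the peroxidase APEX joined to PML. In 2 samples hydrogen peroxide was given, which lets APEX attach biotin to nearby chromatin (H2O2+), and in 2 it was left out as the negative control (H2O2-). All were grown with leukemia inhibitory factor, CHIR99021 and PD0325901. The labels do not say whether the samples came from separate cultures or whether the knock-in line is 1 clone. The values come from the authors' merged list of 26496 peaks, which names no sample and gives a position for each peak but no height, so neither the depth of a sample nor the spread between replicates is known here. Whether the H2O2- controls entered the merged list is not given in the sources used here, so a listed peak is not shown to depend on the labelling. H2O2+ and H2O2- could not be compared, nothing below was tested against replicate error, and all comparisons are counts and widths within this list. Of markers of embryonic stem cells, 7 of 8 genes had a promoter peak, among them Pou5f1, Sox2 and Nanog but not Esrrb. Endoderm and trophoblast markers had one at 2 of 7 genes (Cdx2 and Eomes) and fibroblast markers at 1 of 5 (Vim). Of all autosomal protein-coding genes, 40.3% had one.

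PML bodies are nuclear structures built on the PML protein, and ALaP-seq reads the chromatin that APEX labels around them. The proteasome degrades proteins tagged with ubiquitin. Its core particle is a barrel of alpha rings, which gate entry, around beta rings, which hold the proteolytic sites. A regulatory particle caps it: a ring of ATPases unfolds the substrate, and non-ATPase subunits bind ubiquitin, remove it and hold the cap together. In immune and interferon-treated cells the catalytic beta subunits are exchanged for Psmb8, Psmb9 and Psmb10, which forms the immunoproteasome, and thymic epithelium uses Psmb11. Other activators and an inhibitor bind the core in turn, and assembly chaperones act on the core or on the ATPase ring. High proteasome activity is known from human embryonic stem cells.

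A promoter peak, meaning a peak that shared at least 1 bp with the 1 kb on either side of the 5' end of the gene model, was found for 33 of the 49 (67.3%), against 40.3% of all autosomal protein-coding genes. The non-ATPase subunits of the regulatory particle had one at 11 of 11 genes and its ATPases at 4 of 6, which makes 15 of 17 for the regulatory particle. The core particle had one at 10 of 15 genes, 5 of 8 in the alpha ring and 5 of 7 in the beta ring. Assembly chaperones had one at 4 of 6 genes, the activators and the inhibitor at 3 of 6, and the immunoproteasome and thymoproteasome at 0 of 4. Differences between these small groups were not tested. With an overlap of at least 100 bp 32 members had a promoter peak, against 39.5% of all autosomal protein-coding genes, and with the midpoint of the peak in the window 33 did, against 39.8%. Windows of 500 bp and 2 kb gave 33 members against 37.9% and 34 members against 42.3%.

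**Figure D1:**
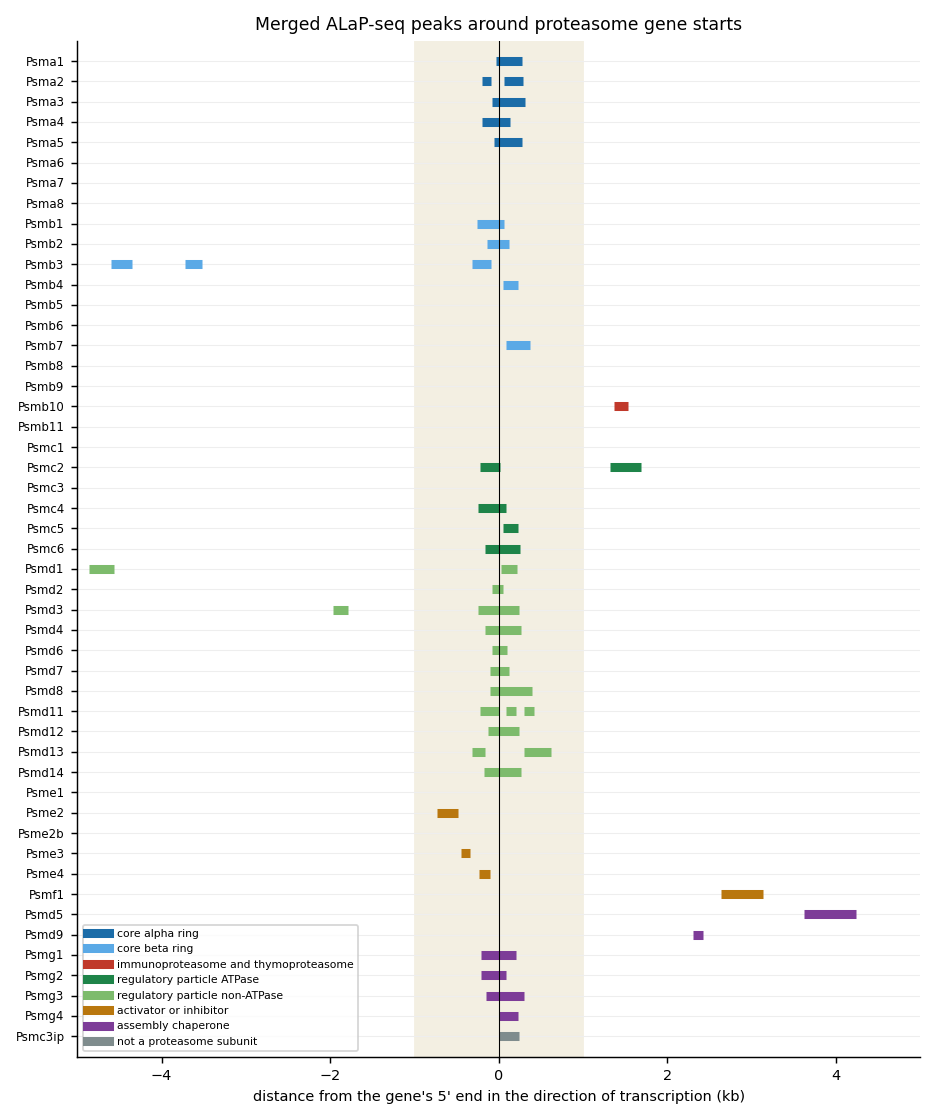
Each row is a gene and each bar a merged peak drawn to scale, with the distance from the 5' end of the gene model on the x axis in kb, positive in the direction of transcription; colours are roles and the shaded band is the promoter window of 1 kb on either side. All 11 non-ATPase genes have a bar in the band and none of the 4 immunoproteasome and thymoproteasome genes does.

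Promoter sequences of selected genes are given below. They are RefSeq's windows of 250 bases before to 50 after a start site on GRCm38.p6, the assembly that mm10 names, written 5' to 3' along the gene, and capitals mark the bases inside a listed peak. The first set holds, for each role, the gene with the widest promoter peak among those in the RefSeq table.
Psma3, chr12:70974373-70974672, plus strand: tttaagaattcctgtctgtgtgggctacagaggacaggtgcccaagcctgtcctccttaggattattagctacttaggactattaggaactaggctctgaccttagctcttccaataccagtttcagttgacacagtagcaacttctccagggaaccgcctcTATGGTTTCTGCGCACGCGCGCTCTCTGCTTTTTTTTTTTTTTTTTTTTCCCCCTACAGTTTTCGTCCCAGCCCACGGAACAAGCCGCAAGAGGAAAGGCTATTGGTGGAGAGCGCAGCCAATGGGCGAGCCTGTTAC
Psmb3, chr11:97703184-97703483, plus strand: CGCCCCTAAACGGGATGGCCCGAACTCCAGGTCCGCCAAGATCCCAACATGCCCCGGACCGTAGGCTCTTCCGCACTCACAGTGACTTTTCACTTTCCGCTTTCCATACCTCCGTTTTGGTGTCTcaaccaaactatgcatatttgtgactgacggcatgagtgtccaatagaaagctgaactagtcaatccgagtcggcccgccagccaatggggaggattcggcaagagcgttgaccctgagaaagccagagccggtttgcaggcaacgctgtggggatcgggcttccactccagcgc
Psmc6, chr14:45329574-45329873, plus strand: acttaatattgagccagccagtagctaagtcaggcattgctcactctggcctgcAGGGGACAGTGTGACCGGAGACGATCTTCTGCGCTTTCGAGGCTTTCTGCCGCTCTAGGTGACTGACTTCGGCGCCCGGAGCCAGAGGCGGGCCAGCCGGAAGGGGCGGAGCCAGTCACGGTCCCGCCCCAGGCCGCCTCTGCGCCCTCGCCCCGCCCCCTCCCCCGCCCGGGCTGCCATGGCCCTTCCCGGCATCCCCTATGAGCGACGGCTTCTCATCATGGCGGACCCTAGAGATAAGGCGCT
Psmd8, chr7:29180624-29180923, minus strand: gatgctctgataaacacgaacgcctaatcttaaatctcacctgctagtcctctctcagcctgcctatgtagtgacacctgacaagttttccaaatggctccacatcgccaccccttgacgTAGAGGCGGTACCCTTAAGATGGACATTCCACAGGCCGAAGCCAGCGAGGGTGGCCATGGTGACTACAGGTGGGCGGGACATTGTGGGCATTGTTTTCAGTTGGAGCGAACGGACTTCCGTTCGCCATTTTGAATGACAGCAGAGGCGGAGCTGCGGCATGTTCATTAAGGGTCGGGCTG
Psmg3, chr5:139826845-139827144, minus strand: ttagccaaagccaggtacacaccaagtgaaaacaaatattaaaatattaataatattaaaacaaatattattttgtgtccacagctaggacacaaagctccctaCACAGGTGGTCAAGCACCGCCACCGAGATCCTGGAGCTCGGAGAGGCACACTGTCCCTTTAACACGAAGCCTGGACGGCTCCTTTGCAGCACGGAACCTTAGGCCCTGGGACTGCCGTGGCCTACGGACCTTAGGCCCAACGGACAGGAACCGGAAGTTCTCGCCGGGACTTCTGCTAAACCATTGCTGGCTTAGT
Psme2, chr14:55591052-55591351, minus strand: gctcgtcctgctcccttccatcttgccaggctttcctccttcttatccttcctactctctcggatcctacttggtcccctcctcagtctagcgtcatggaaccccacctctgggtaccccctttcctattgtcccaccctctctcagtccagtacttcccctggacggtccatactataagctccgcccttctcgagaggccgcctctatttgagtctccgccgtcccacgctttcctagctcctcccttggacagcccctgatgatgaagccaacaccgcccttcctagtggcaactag
The peak covered 246 of 300 bases at Psmc6, 196 at Psmg3, 180 at Psmd8, 138 at Psma3 and 125 at Psmb3. At Psmc6, Psmg3, Psmd8 and Psma3 it ran to the end of the window, across the start site, whereas at Psmb3 it lay in the upstream part. At Psme2 it covered none of the window, since that peak lay at a neighbouring gene. The second set holds the immunoproteasome genes, which had no promoter peak in the counts above. As the first set was picked by peak width, the marking adds nothing to those counts. Constitutive genes without a promoter peak, such as Psmb5, are not shown.
Psmb8, chr17:34197945-34198244, plus strand: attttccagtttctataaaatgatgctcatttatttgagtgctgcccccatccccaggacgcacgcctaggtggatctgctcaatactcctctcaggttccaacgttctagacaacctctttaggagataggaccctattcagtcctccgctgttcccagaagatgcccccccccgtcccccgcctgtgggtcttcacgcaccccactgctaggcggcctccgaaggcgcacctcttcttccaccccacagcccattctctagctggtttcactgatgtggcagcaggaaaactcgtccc
Psmb9, chr17:34187281-34187580, minus strand: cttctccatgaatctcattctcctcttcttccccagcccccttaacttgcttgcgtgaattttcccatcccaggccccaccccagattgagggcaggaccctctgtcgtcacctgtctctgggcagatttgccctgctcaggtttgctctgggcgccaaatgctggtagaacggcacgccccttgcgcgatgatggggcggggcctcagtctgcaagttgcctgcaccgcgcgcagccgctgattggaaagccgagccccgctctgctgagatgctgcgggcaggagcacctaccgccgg
Psmb10, chr8:105938343-105938642, minus strand: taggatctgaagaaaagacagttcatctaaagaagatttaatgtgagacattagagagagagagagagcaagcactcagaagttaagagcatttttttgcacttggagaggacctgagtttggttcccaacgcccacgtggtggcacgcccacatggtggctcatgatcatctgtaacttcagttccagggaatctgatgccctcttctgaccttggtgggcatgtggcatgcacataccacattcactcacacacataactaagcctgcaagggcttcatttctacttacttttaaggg
No base of these 3 windows was inside a peak. Their GC content was 55.3% at Psmb8, 62.0% at Psmb9 and 45.7% at Psmb10, against 49.3% at Psma3 and 66.3% at Psmc6.

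In the alpha ring of the core, Psma1, Psma2, Psma3, Psma4 and Psma5 carried promoter peaks. The widest, 400 bp, lay at Psma3 on chromosome 12 (70974535 to 70974934), with its midpoint 113 bp downstream of the 5' end, in the UTR. Psma4 on chromosome 9 (54950595 to 54950919) and Psma5 on chromosome 3 (108256874 to 108257198) each had one of 325 bp, and Psma1 one of 310 bp. Psma2 had 2 peaks, of 230 bp in an intron and of 114 bp upstream, in the gene Mrpl32. Psma6, Psma7 and Psma8 had none. Psma8, which replaces another alpha subunit in the testis, was 22794 bp from the nearest peak, and Psma7, the gene of the subunit it replaces, was 17396 bp from the nearest to it.

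Among the constitutive beta subunits, Psmb1, Psmb2, Psmb3, Psmb4 and Psmb7 carried promoter peaks of 310, 269, 233, 176 and 289 bp. The peak of Psmb1 on chromosome 17 (15499696 to 15500005) was shared with Tbp, whose start is 137 bp away on the other strand and which encodes the TATA-binding protein. That of Psmb7, the gene of the trypsin-like subunit, was on chromosome 2 (38643716 to 38644004), with its midpoint in coding sequence 227 bp downstream of the start. Psmb5 and Psmb6, which encode the chymotrypsin-like and caspase-like subunits, had none. Their nearest peaks were 14387 and 15104 bp away. Of the 3 constitutive catalytic genes, then, Psmb7 was the one with a promoter peak.

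The genes that take the place of these catalytic subunits carried none. Psmb8 and Psmb9 are neighbours in the major histocompatibility region of chromosome 17, with 5' ends at 34197721 on the plus strand and 34187764 on the minus strand, and the same peak was nearest to both, 62240 and 52283 bp away. Psmb11 on chromosome 14 (5' end 54621433, plus strand) was 17798 bp from its nearest peak, which is also the nearest to Psmb5. From the RefSeq start of Psmb11, 3877 bp downstream, a different peak was nearest, 15972 bp away. Psmb10 on chromosome 8 (5' end 105938444, minus strand) was just outside the window: a peak of 166 bp (105936917 to 105937082) began 1362 bp downstream of the 5' end, inside the gene, and covered 3 annotated transcript starts. A window of 2 kb therefore gave 1 of 4 genes, and so did counting every annotated transcript start, whereas RefSeq starts gave 0 of 4. Of all autosomal genes in the same classes of promoter CpG content, described below, 26.4% had a promoter peak, which for 4 genes comes to 1.06.

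In the regulatory particle, the ATPase genes Psmc2, Psmc4, Psmc5 and Psmc6 had promoter peaks of 238, 330, 185 and 417 bp. Those of Psmc6 (chromosome 14, 45329628 to 45330044) and Psmc4 (chromosome 7, 28050021 to 28050350) covered the start, as did that of Psmc2. The starts of Dnajc2 and Ftsj3 lay 32 and 75 bp from those of Psmc2 and Psmc5 on the other strand, and each pair shared its peak. Psmc1 and Psmc3 had none within 1 kb, nor at any other annotated start. Psmc1 was the farther of the pair from a peak, at 49296 bp, and Psmc3 was 16257 bp away.

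Every gene classed as a non-ATPase subunit carried a promoter peak. Psmd5 and Psmd9, which also have Psmd symbols, were classed as assembly chaperones and had none at the 5' end of the model. Psmd8 had the widest of all members, 494 bp on chromosome 7 (29180310 to 29180803), and Psmd3 one of 491 bp on chromosome 11 (98682303 to 98682793); both encode subunits of the lid. Psmd4, the gene of a ubiquitin receptor, had one of 435 bp, and Psmd14, the gene of the deubiquitinase of the lid, one of 434 bp. Psmd12 had 367 bp, Psmd13 325 bp, Psmd7 230 bp, Psmd11 223 bp and Psmd6 179 bp. The genes of the scaffold subunits that hold the base together had peaks of 196 bp at Psmd1 and 128 bp at Psmd2. Psmd11 had 3 separate promoter peaks and Psmd13 had 2. With Psma2, 3 of 49 members (6.12%) had more than 1, against 7.19% of all autosomal protein-coding genes.

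The 3 peaks of activator genes were all centred upstream of the start, and their median width, 129 bp, was the lowest of the roles. Psme3, which encodes a nuclear activator, had one of 98 bp with its midpoint at -396 bp from the 5' end, and Psme4, the gene of another nuclear activator, one of 129 bp with its midpoint at -171 bp on chromosome 11 (30771491 to 30771619). Psme2, an interferon-inducible activator gene, had one of 247 bp on chromosome 14 (55591600 to 55591846). Its midpoint was at -610 bp and lay 15 bp from the start of Rnf31, a ubiquitin ligase gene on the other strand. Psme1, whose product forms a ring with that of Psme2, and Psme2b had none, and their nearest peaks were 13477 and 89078 bp away. With only peaks wider than the median of the list, 223 bp, 1 of these 6 genes kept a promoter peak, against 25.9% of all autosomal protein-coding genes at that setting. Of the assembly chaperones, Psmg3 (453 bp, chromosome 5, 139826588 to 139827040), Psmg1 (426 bp, chromosome 16, 95990752 to 95991177), Psmg2 (299 bp) and Psmg4 (222 bp) had one, and Psmd5 and Psmd9 had none at the 5' end of the model. Psmc3ip had one of 243 bp.

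**Figure D2:**
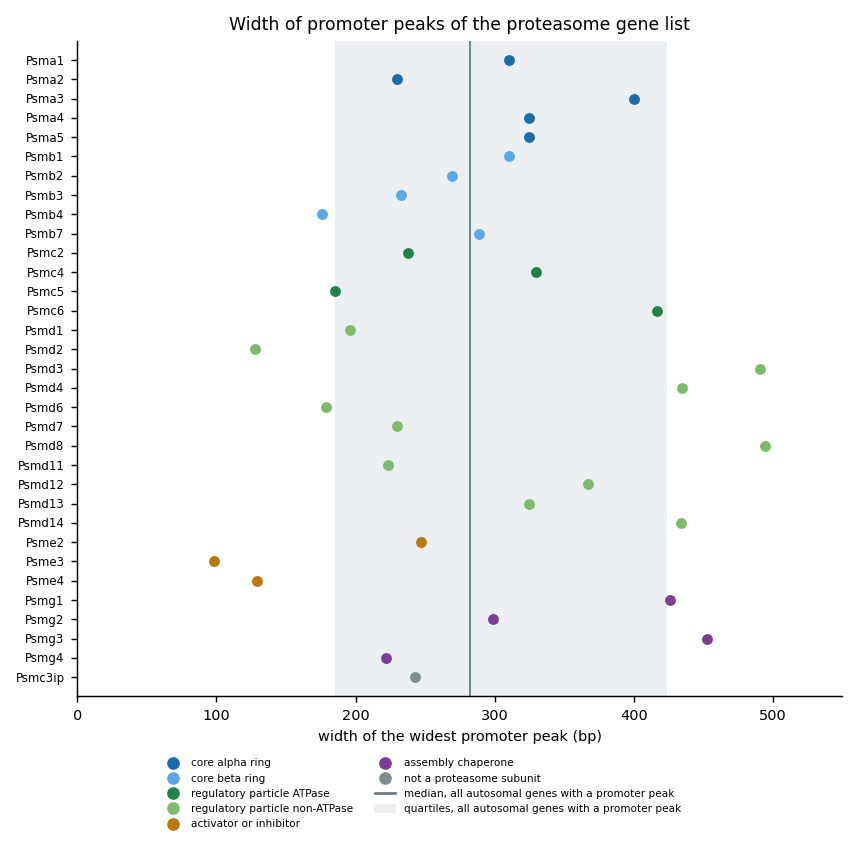
The x axis gives the width in bp of the widest promoter peak of each of the 33 members that have one, with a point per gene coloured by role; the line and band are the median and quartiles of all autosomal protein-coding genes with a promoter peak. Most points lie in the band, with Psme3 at 98 bp lowest and Psmd8 at 494 bp highest.

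The median of the members' widest promoter peaks was 289 bp (quartiles 223 and 367 bp), with a range of 98 to 494 bp, against a median of 282 bp (quartiles 186 and 423 bp) over all autosomal genes with one, whose widths ran between 91 and 3585 bp. A promoter peak wider than the median of the list was present at 24 of 49 members (49.0%), against 25.9% of all autosomal protein-coding genes. Among genes with a promoter peak, the shares were 72.7% of members and 64.2% of all autosomal genes. The midpoint lay within 150 bp of the 5' end at 26 of the 33 members with a peak (78.8%), against 57.4% of all autosomal genes with one. The peak covered the 5' end itself at 21 of 49 members (42.9%), against 22.9% of all autosomal protein-coding genes. Among genes with a promoter peak, it did so at 63.6% of members and 56.8% of all autosomal genes. Midpoints lay upstream of the gene in 14 members, in a UTR in 11, in coding sequence in 4, in another exon in 2 and in an intron in 2.

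Members sat close to other genes. A start of another protein-coding gene within 1 kb upstream on the other strand was found at 7 of 49 members (14.3%), against 6.97% of all autosomal protein-coding genes. Of these 7, 6 had a promoter peak, and of all such genes 78.8% did. The member without one was Psma7, 76 bp from Ss18l1. Counting any arrangement, 9 members shared a promoter peak with another gene, so peaks at Mrpl32, AY074887, Tbp, Dnajc2, Ftsj3, Sirt3, Rnf31, Cep76 and Gm26938 cannot be assigned to the proteasome gene alone. How many of all autosomal genes share one was not counted, so it is not known whether 9 is many.

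Promoter CpG content, as the observed over expected number of CpG within 500 bp of the 5' end and in 10 classes of equal size, went with the presence of a peak among the members. In the upper classes, 6 to 10, 32 of 38 members had a promoter peak (84.2%), against 67.4% of all autosomal genes of these classes. In classes 1 to 5 this held for 1 of 11 (9.09%), Psme2, against 13.2% of all autosomal genes there. Of the others in these classes, Psma6, Psmb10, Psmf1, Psmd5 and Psmd9 had a peak over a later annotated start. Their class was read at the 5' end of the model, away from that start. Given the class of each member, the shares of all autosomal genes add up to 27.5 members with a peak, against the 33 observed. By the same count the regulatory particle had 15 against 11.4 and the core 10 against 9.32. The 6 members of the upper classes without one were Psma7, Psmb5, Psmb6, Psmb9, Psmc1 and Psmc3. Of their windows, 5.25, 33.6, 24.6, 12.7, 21.2 and 29.3% was marked as repeats in the reference, and per the series' design text reads were mapped to a repeat-masked genome. The median was 16.9% at the 33 members with a peak and 28.9% at the 16 without. Over all autosomal protein-coding genes it was 13.9%, and over those with a promoter peak 12.0%. The 16 include the genes with a peak over a later start, whose windows were read at the 5' end of the model. The part of masking in the result was not tested.

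**Figure D3:**
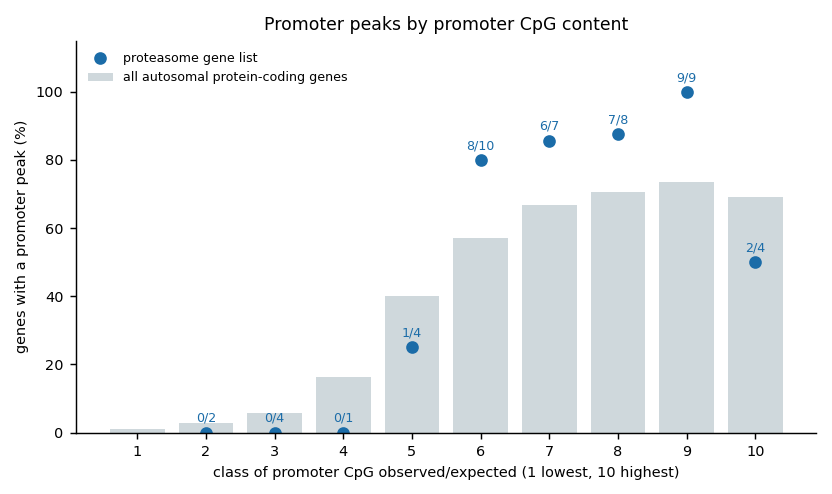
The share of genes with a promoter peak, in percent, is plotted against the class of promoter CpG content from 1 (lowest) to 10 (highest), with points for the proteasome gene list, labelled with members with a peak over members, and bars for all autosomal protein-coding genes. All 9 members of class 9 had a peak, and the points of classes 6 to 9 lie above their bars while that of class 10 lies below.

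At 4 members without a promoter peak, RefSeq gives a start well downstream of the 5' end of the GENCODE model, and a peak covered that later start. Psmb11 also has such a RefSeq start, 3877 bp downstream, but no peak covered it and the nearest was 15972 bp away. Psma6, an alpha ring gene, has RefSeq starts at the 5' end of the model and 14603 bp downstream, at 55398825 of chromosome 12, where a 341-bp peak lay (55398552 to 55398892). At Psmf1, which encodes an inhibitor of the core, the RefSeq start at 151741310 of chromosome 2, 2876 bp downstream, was inside a 495-bp peak (151741055 to 151741549). At Psmd5, a chaperone gene of the ATPase ring, a peak of 620 bp (chromosome 2, 34870731 to 34871350) covered the start at 34870962, 4006 bp downstream. This peak was wider than any promoter peak of the 33 members above. At Psmd9, another chaperone gene, the RefSeq start lay 58777 bp downstream of the 5' end, beyond the 50 kb searched for distal peaks, and a peak of 119 bp (chromosome 5, 123228173 to 123228291) covered it.

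The windows at the later starts of Psma6 and Psmd5 are shown because peaks covered all 300 bases of both.
Psma6, chr12:55398575-55398874, plus strand: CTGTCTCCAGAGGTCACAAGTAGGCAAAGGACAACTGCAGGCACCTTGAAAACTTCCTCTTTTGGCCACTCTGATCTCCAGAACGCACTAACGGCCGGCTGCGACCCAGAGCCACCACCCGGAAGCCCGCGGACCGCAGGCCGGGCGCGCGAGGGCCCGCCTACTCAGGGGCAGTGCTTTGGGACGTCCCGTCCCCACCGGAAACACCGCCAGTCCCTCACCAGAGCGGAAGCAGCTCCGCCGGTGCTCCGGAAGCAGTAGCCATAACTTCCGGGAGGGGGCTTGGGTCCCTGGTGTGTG
Psmd5, chr2:34870913-34871212, minus strand: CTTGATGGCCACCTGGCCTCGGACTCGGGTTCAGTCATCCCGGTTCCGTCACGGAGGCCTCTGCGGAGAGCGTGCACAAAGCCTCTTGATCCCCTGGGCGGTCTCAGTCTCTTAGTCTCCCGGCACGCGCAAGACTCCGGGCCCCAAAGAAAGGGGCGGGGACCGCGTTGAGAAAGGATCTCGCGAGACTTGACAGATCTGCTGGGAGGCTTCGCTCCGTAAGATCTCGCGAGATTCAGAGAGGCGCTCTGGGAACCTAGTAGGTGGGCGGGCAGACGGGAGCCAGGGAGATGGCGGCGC
They hold 22 and 26 CpG, and 65.0 and 63.7% of their bases are G or C. The 5' ends of the models of Psma6 and Psmd5, in contrast, were in CpG classes 3 and 4. With RefSeq starts where the promoter table has them, a choice made after the values were seen, 37 of 49 members (75.5%) had a promoter peak, against 41.7% of all autosomal protein-coding genes. All 6 assembly chaperones then had one. Counting every annotated transcript start gave 38 members (77.6%), against 44.5% of all autosomal protein-coding genes, the added gene being Psmb10.

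**Figure D4:**
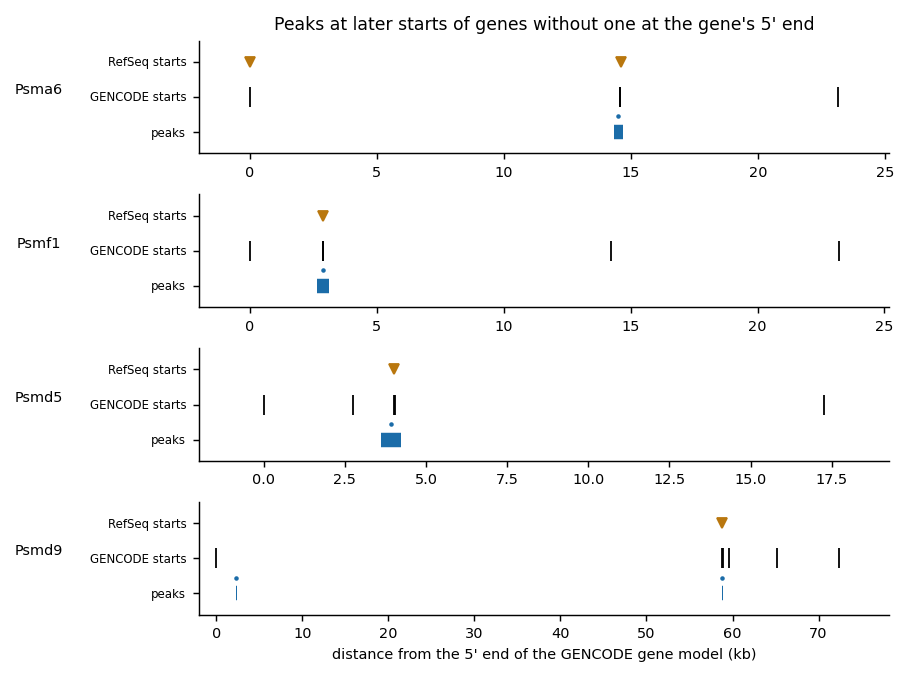
For 4 genes without a peak at the 5' end of the GENCODE model, triangles mark RefSeq starts, ticks GENCODE transcript starts and bars merged peaks with a dot above each, against the distance from that 5' end in kb. In each panel a peak lies at the later RefSeq start, 2876 bp from the 5' end at Psmf1 and 58777 bp from it at Psmd9.

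Short words of known promoter elements were counted in the RefSeq windows of 41 members, which have 44 windows because some list 2 starts, and in 19174 windows of autosomal genes. Both strands were read, and a match of one word may overlap that of another. The members not in the table were Psma8, Psmb1, Psmb2, Psmb7, Psmc3, Psmd3, Psmd7 and Psmg2. A peak overlapped 29 of the 44 member windows. The ETS core CCGGAA was present in 18 of these 29 windows (62.1%) and in 3 of the 15 without a peak, against 35.0% and 11.2% of all windows with and without one. The nuclear respiratory factor word (GCGCA, any base, GCGC) was present in 7 of the 29 (Psma2, Psma3, Psma4, Psmc4, Psmc5, Psmd14 and Psmg1) and in 0 of the 15, against 14.3 and 2.68% of all windows. The later window of Psma6 holds 4 matches of the ETS core, and the window of Psma3 holds the nuclear respiratory factor word from 78 bases before the start.

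Other words were counted in the same way. The antioxidant response element core TGACNNNGC, a site of the factors that raise proteasome genes when the proteasome is inhibited, was in 6 of 44 member windows (13.6%), against 13.2% of all windows: those of Psmb5, Psmb6, Psmc6, Psmd12, Psmd9 and Psme4. The CCAAT box was in 31.8% of member windows, against 37.5% of all windows, and in 27.6% of those with a peak, against 41.3%. The GC box GGGCGG was in 52.3% of member windows, against 48.3% of all windows, but in 58.6% of those with a peak, against 72.1%. The interferon-stimulated response element core (GAAA, any 2 bases, GAAA) was in 5 windows (Psmb3, Psmd4, Psmd9, Psme1 and Psmg4) (11.4%), against 3.43% of all windows. It was in 13.8% of the member windows with a peak, against 2.21% of all windows with one, and in 0 of the 4 windows of immunoproteasome and thymoproteasome genes. The gamma-activated site TTCNNNGAA was in 3 member windows (6.82%), those of Psmb8, Psmd2 and Psmg1, against 7.74% of all windows, and lay 97 bases before the start in that of Psmb8. A match is a run of letters and does not show that a factor binds there.

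Away from the promoter, 42 of 49 members (85.7%) had at least 1 distal peak, with its midpoint within 50 kb of the 5' end and outside the promoter window, against 63.7% of all autosomal protein-coding genes. The median was 2 per member against 1 over all genes, and the mean 2.98 against 2.24. Members lie where genes are denser: with the number of neighbouring starts taken into account in 5 classes, the mean of all autosomal genes became 2.76. Members with none were Psma1, Psmb8, Psmb9, Psmd6, Psmd14, Psme2b and Psmg2. When those at promoters of other protein-coding genes were left out, 27 members (55.1%) had a distal peak, against 50.7% of all autosomal protein-coding genes. Promoters were here taken at the 5' ends of gene models. Psmf1 was among the 27 only through the peak at its own later start.

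More than 5 distal peaks were found at 7 members (14.3%), against 12.2% of all autosomal protein-coding genes. Psmb3 had the most, 19, of which 14 were nearest to the start of Mllt6, 2 to Cisd3, 2 to the polycomb gene Pcgf2 and 1 to Pip4k2b. The widest of them, 1050 bp on chromosome 11 (97661636 to 97662685), touched the promoter window of Mllt6. Psmd9 had 10, of which 5 were nearest to Rhof and 3 to Setd1b, the gene of a histone methyltransferase, and they included peaks of 1544 bp (chromosome 5, 123137714 to 123139257) and 1272 bp (123134735 to 123136006). The 10 were counted from the 5' end of the model. All of them lay more than 50 kb from the RefSeq start of Psmd9, which is 58777 bp downstream. Psmd12 had 9, 6 of them nearest to Pitpnc1, the widest of 482 bp (chromosome 11, 107435763 to 107436244). Psmb5 and Psmb11, which are neighbours, had the same 7 peaks around them, 3 of which were nearest to Ajuba, including the widest, of 637 bp (chromosome 14, 54577398 to 54578034). Psmd2 had 6, of which 5 were at promoters of other genes, the widest of 437 bp (chromosome 16, 20622227 to 20622663). Psmg4 had 6, of which 4 were nearest to Tubb2b, the widest of 1045 bp (chromosome 13, 34129527 to 34130571). The 146 distal peaks counted over members were 136 distinct peaks, and 76 of these were at no protein-coding promoter, taken at the 5' ends of gene models. The 76 therefore include peaks that covered later annotated starts of Psma6, Psmf1, Psmd5, Psmc2 and Psmb10 themselves. With peaks within 1 kb of any annotated transcript start of the gene left out, 41 members (83.7%) had a distal peak, against 62.7% of all autosomal protein-coding genes.

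**Figure D5:**
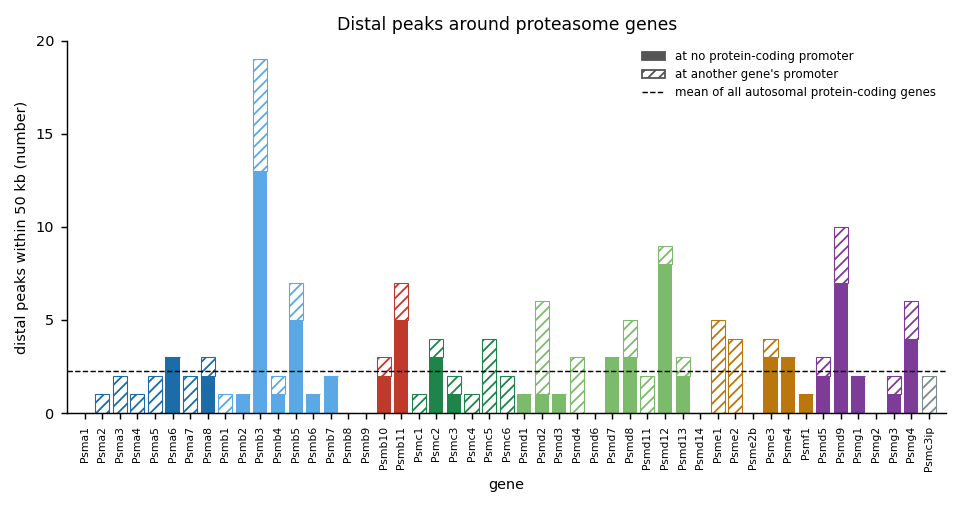
Bars give the number of distal peaks within 50 kb of the 5' end of each member, filled for peaks at no protein-coding promoter and hatched for peaks at another gene's promoter, coloured by role as in the map of peaks; the dashed line is the mean of all autosomal protein-coding genes, 2.24. Promoters are taken at the 5' ends of gene models, so a peak at a later start of a gene counts as filled. Psmb3 stands highest at 19 and 7 members are at 0.

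Of 29 other genes of the pathway, 22 had a promoter peak, against 40.3% of all autosomal protein-coding genes and 67.4% of those in CpG classes 6 to 10. Unlike these shares, the 29 include genes on chromosome X: Psmd10 and Foxo4, without a peak, and Ubqln2, with one. Subunit genes with other symbols had one at Adrm1 (231 bp), the gene of a ubiquitin receptor, and Uchl5 (343 bp), that of a deubiquitinase. Sem1 had none. Psmd10, whose symbol matches the rule but which lies on chromosome X, had none either. Associated and assembly factors had one at 7 of 9, among them Pomp (249 bp), the maturation factor of the core, but not Usp14 or Ecpas. Shuttle factors, the unfoldase gene Vcp and the enzymes that process the factor encoded by Nfe2l1 had one at 7 of 8, Ddi2 being the exception. Transcription factor genes had one at 6 of 8: Nfe2l1, whose product raises proteasome genes, had 2 of up to 396 bp, and Nfe2l2 had one of 687 bp. Foxo4, on chromosome X, and Nfyc had none. Irf1, which encodes a factor that acts on the immunoproteasome genes, had a promoter peak of 242 bp. Its known targets Psmb8, Psmb9 and Psmb10 had none in the window, though a peak inside Psmb10 covered later annotated transcript starts.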

How the data were processed

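ALaP-seq chromatin profiles were made from 4 samples of E14 cells, 2 H2O2+ and 2 H2O2-. Trimming used Trimmomatic, mapping used bowtie2 2.3.5.1 on repeat-masked mm10, and bedtools took out blacklisted and greylisted regions, all per the series' design text. How peaks were called and merged, and at which threshold, is not given in the sources used here. Values from the authors, as deposited, are other than counts or signal: start and end positions of 26496 peaks, 91 to 12734 bp wide; the name of the table says that replicates were merged. The file holds no value per sample, so depth is unknown.

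Peaks were joined to GENCODE M21 and RefSeq tables of GRCm38.p6 in Python 3.11.15 with pandas 2.3.3. The start of a gene was the 5' end of its model. Windows, distal radius and CpG classes are as given with the results. Overlap counting was tested on simulated peaks. The members, roles, pathway genes and words were chosen with earlier results of these data known. All members were named; coordinates were given for the 2 widest promoter peaks of a role, for immunoproteasome genes and for loci with over 5 distal peaks. An item of the pathway list is not reported here and is in no count. No test was run, because the list names no sample and genes are not replicates.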

Additional observations from a re-analysis of the deposited data

How the results depend on the processing

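Of 48 alternative counts, 44 were within 1.5 times the reported value. Promoter peaks of all members were at 32 to 38 genes with windows of 500 bp or 2 kb, an overlap of 100 bp, midpoints, other start sites or without Psmc3ip, and at 24 with only peaks wider than the median. The immunoproteasome and thymoproteasome count moved to 1 with a window of 2 kb and to 1 with any annotated transcript start, in both cases through Psmb10, and the activators and inhibitor to 1 with only the wider peaks. Members with a distal peak moved to 27 (55.1%) when peaks at promoters of other genes were left out, against 50.7% of all autosomal genes. Within 20 kb 28 members (57.1%) had one, against 40.6%, and within 100 kb 47 (95.9%) did, against 78.7%. The mean per member was 0.878 within 20 kb, against 0.869 over all genes, and 6.14 within 100 kb, against 4.44. RefSeq starts were added after the values were seen. No paired analysis was possible because the list carries no sample; no replicate could be left out for the same reason. The list gives no height, so a gene without a peak may hold signal under the authors' threshold.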
